A study of Rattus norvegicus with 6 samples.

Results

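The genes described here encode the proteasome without its immunoproteasome variants. They were taken as every gene whose only symbol in the array annotation begins with Psma, Psmb, Psmc, Psmd or Psme and a number, leaving out Psmb8, Psmb9 and Psmb10. This rule gave 38 of the 14217 genes that the array names by 1 symbol, and each gene is represented by its probe set with the highest mean log2 signal. They were measured in whole ovaries of 4-day-old female Sprague-Dawley rats cultured for 48 h, on 3 arrays of ovaries given 50 ng/ml of recombinant human NT3 and on 3 arrays of control ovaries given no factor. NT3 is a neurotrophin, and the series title concerns the passage of primordial follicles to the primary stage. Each array held RNA pooled from 2 to 3 ovaries. All cultures shared a medium with albumin, ascorbic acid, transferrin and antibiotics. The replicates are labelled as biological, with no word on separate animals or litters. A p-value here thus covers the spread among these samples alone.

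The proteasome is the protease that degrades most ubiquitin-tagged proteins. Its core is a barrel of alpha and beta rings, with the cutting sites inside the beta rings. A regulatory cap of ATPase and non-ATPase subunits recognises the ubiquitin chain, unfolds the protein and feeds it through the alpha ring. In place of this cap the core can carry activators of the Psme family, and in cells exposed to interferon the beta subunits encoded by Psmb8, Psmb9 and Psmb10 replace the catalytic ones. In oocytes, proteasome activity is known for degrading cyclin B and securin at the meiotic divisions.

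Of the 38 genes, 7 encode alpha ring subunits, 6 beta ring subunits, 6 the ATPases of the cap, 14 its non-ATPase subunits or assembly factors, and 3 activators. The remaining 2, Psmc3ip and Psme3ip1, match the letters of the rule but encode proteins that bind a proteasome component and are no subunits. Psmc3ip is a meiotic recombination factor, and Psme3ip1 binds the activator encoded by Psme3. Psmb6 and Psme3 are not analysed here, because the probe sets that carry their names also carry other symbols. All 38 genes passed the signal filter, which removed the dimmest 40% of probe sets. Their mean signals lay between 339 and 6108 on the linear MAS5 scale of the deposited table, on which signals of different probe sets cannot be ranked against each other.

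Known upstream control of these genes runs through the transcription factor encoded by Nfe2l1, which binds antioxidant response elements in proteasome promoters when proteasome capacity is short. The 250 bases before the annotated start were searched on both strands for this element as TGACNNNGC and for the CCAAT box as CCAAT. RefSeq sequences of the GRCr8 build were matched for 34 of the 38 genes. The element was found before 6 of these 34 genes, or 17.6%, against 10.1% of all 33469 promoters searched and 12.1% of the 13242 promoters of genes on the array. CCAAT was found before 18 of 34, or 52.9%, against 34.0% and 34.6%. These shares describe letters in a window and say nothing of binding. The promoters below were chosen among the 6 with a match to TGACNNNGC. Psmb5 encodes a catalytic subunit, and Psmb7, also catalytic, had 0 matches. In Psmb2 every NT3 array stood above every control array, as in 2.62% of all probe sets tested. Psmd1 was the cap gene that varied most between control arrays. Capitals mark the matches to TGACNNNGC, which begin 60, 68 and 165 bases before the start of Psmb5, Psmb2 and Psmd1. In Psmb2 the match shares 1 base with a CCAAT box.
Psmb5 promoter, chr15:32047380-32047629, minus strand: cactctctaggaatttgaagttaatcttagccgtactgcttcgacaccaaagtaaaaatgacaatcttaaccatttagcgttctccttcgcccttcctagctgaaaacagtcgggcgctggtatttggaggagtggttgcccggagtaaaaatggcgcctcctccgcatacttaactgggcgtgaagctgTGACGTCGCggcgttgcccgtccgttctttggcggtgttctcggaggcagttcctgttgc
Psmb2 promoter, chr5:144254808-144255057, plus strand: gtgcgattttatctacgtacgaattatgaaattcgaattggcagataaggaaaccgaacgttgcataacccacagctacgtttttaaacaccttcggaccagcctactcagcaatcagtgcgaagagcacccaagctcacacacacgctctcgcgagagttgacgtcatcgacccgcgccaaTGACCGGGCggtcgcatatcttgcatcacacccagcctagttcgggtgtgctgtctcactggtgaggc
Psmd1 promoter, chr9:94157721-94157970, plus strand: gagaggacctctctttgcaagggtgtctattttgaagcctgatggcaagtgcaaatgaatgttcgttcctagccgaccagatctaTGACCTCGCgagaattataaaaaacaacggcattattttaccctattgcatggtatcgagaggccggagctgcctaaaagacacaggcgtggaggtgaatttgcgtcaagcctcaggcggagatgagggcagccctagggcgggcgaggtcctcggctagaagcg

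The arrays were on 1 scale, with a 2% trimmed mean of 210.1 on each and medians between 69.0 and 75.0. Control replicate 2 stood apart in the ratio of 3′ to 5′ signal. The beta-actin probe sets at the 3′ and 5′ ends had a ratio of 2.78 to 2.91 on the NT3 arrays, against 6.83 on control replicate 2 and 2.42 and 2.60 on the other control arrays. The same ratio for GAPDH differed less, at 1.70 on control replicate 2, against 1.21 to 1.25 on the NT3 arrays and 1.09 and 1.14 on the other control arrays. The results for the 38 genes together and for the ring and cap groups are therefore given with and without control replicate 2. Many values of single genes and other groups are given with all arrays only. The labelled tissue carried its defining markers, since the zona pellucida gene Zp3 averaged 4063 ± 483 in NT3 and 4285 ± 75.4 in control ovaries, and the granulosa factor gene Foxl2 597 ± 149 and 527 ± 81.9 (SD, n = 3 each). Of 8 listed oocyte markers 5 were tested, with 1 higher and 4 lower in NT3, or 0 and 5 without control replicate 2. Of 7 listed granulosa markers 6 were tested, with 3 higher and 3 lower, or 4 and 2 without that array. With all arrays, 4 of 4 tested stroma markers, 4 of 6 for macrophages and leukocytes and 0 of 3 for endothelium were higher. The counts were 1 of 3 for theca and steroid, 2 of 2 for oviduct epithelium and 1 of 2 for smooth muscle. Over all probe sets tested, 49.8% were higher. In a whole organ, fewer cells of a type and less RNA per cell cannot be told apart.

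Proteasome transcripts as a group stood at nearly the same level with and without NT3. Relative to each gene's own mean over the 6 arrays, the median of the 38 genes was -0.011, 0.025 and -0.021 on the log2 scale on NT3 replicates 1 to 3, against -0.079, 0.110 and 0.0046 on control replicates 1 to 3. The NT3 arrays lay inside the range spanned by the control arrays. The median log2 fold change was -0.014, against -0.00054 over all 18625 probe sets tested. Of the 38 genes, 13 were higher and 25 lower, where 49.8% of all probe sets tested were higher. That split turned with control replicate 2, without which 25 genes were higher and 13 lower with a median of 0.033, against 49% of all probe sets higher.

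**Figure D1:**
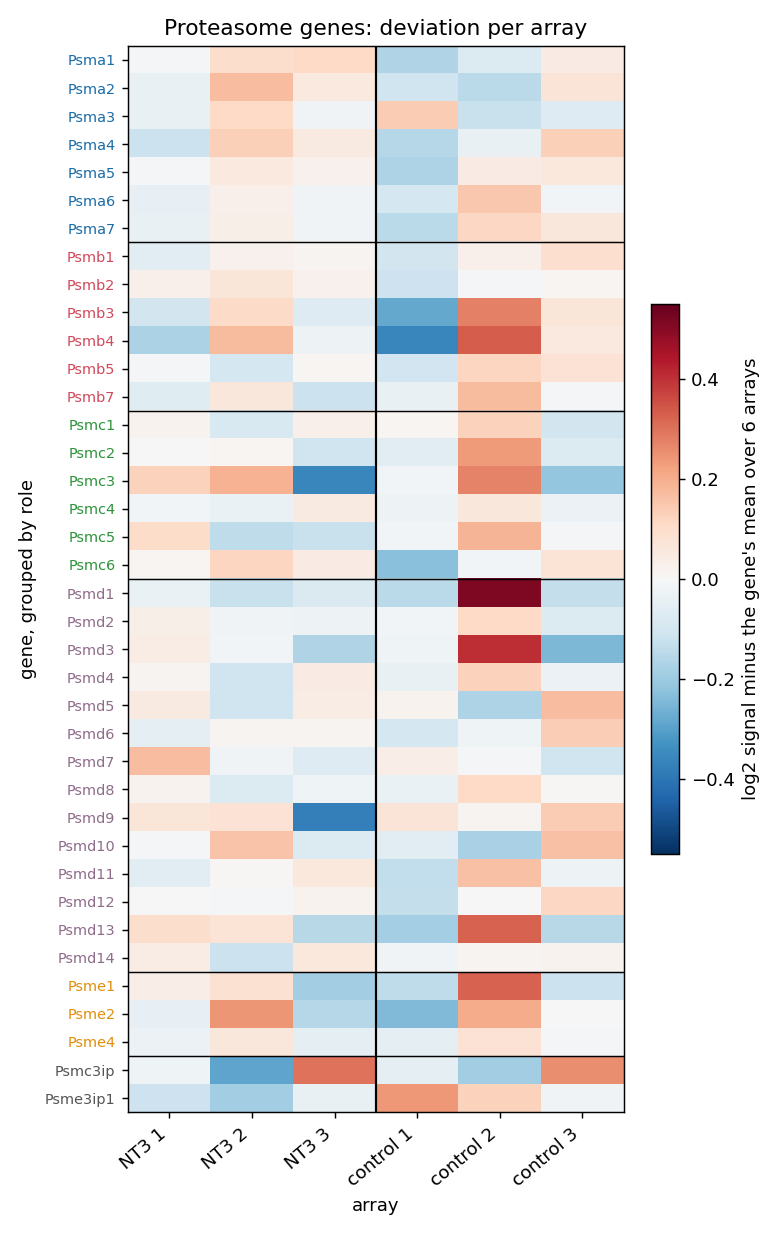
Log2 signal of each of the 38 genes (rows, grouped and coloured by role from the alpha ring at the top to the interacting proteins at the bottom) on each array (columns), as the difference from that gene's mean over the 6 arrays. The strongest red, in control replicate 2, belongs to Psmd1, and the NT3 columns are mostly pale.

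No proteasome gene passed limma's test. The share called over all probe sets was 0% at an adjusted p under 0.05 and 1.29% at an unadjusted p under 0.05, made up of 0.548% higher and 0.741% lower in NT3. At either level 0 of the 38 genes were called. When the fit held the replicate number as a block, the share at an unadjusted p under 0.05 was 2.15% over all probe sets, and without control replicate 2 it was 3.52%. In both fits 0 of the 38 genes were among them. A p above the threshold does not show equal levels, so the 95% intervals matter more here. In 31 of the 38 genes the interval lay within 1.3-fold to either side, and in all 38 it lay within 1.5-fold, both with all arrays and without control replicate 2. These counts are given without the share over all probe sets. The most extreme bounds were 0.680-fold for Psmd1 and 1.31-fold for Psmc3ip. The median standard error of the log2 fold change was 0.11 for the 38 genes, against 0.18 over all probe sets tested and 0.13 over the 6183 whose mean signal was at least that of the dimmest of the 38. The fold change was smaller than the gene's own pooled replicate SD in 34 of 38 genes, a count without its share over all probe sets. Without those shares, the counts by interval and by SD cannot be read as particular to these genes.

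**Figure D2:**
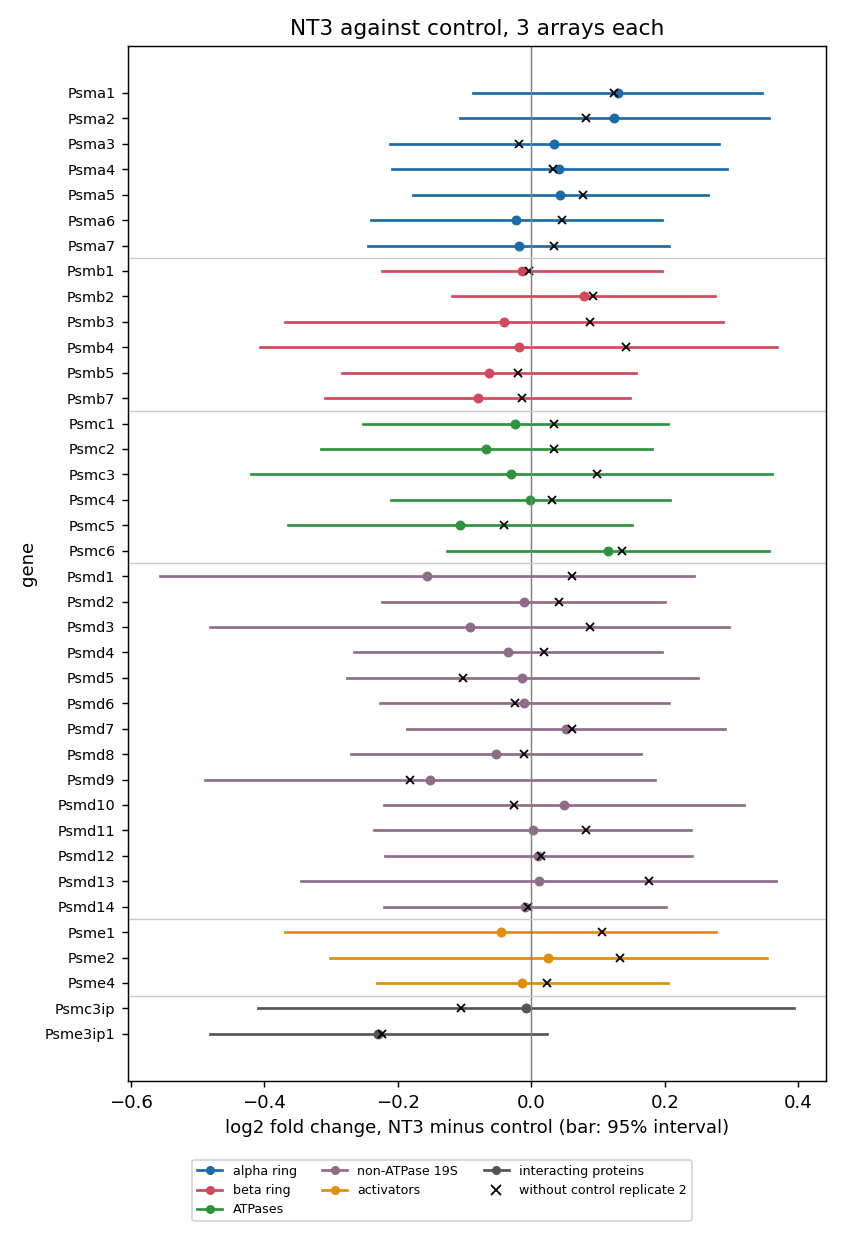
Log2 fold change of NT3 minus control for each of the 38 genes (dots, coloured by role), with 95% intervals from limma as bars and the value without control replicate 2 as a cross. Every bar crosses 0, and many crosses lie to the right of their dots, as for Psmd1 at -0.16 and 0.061.

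The alpha ring forms the gate of the core. Of its 7 genes 5 were higher and 2 lower in NT3, or 6 and 1 without control replicate 2. The median log2 fold change was 0.042, or 0.045 without that array. With all arrays Psma1 had the largest positive difference of all 38 genes. Its signal was 3539, 3806 and 3843 on NT3 replicates 1 to 3, against 3176, 3385 and 3683 on control replicates 1 to 3. The groups overlapped through control replicate 3, and the log2 fold change was 0.13 ± 0.096 (SE) with an unadjusted limma p of 0.210. Psma2 read 3754, 4343 and 4000 in NT3 and 3575, 3480 and 4048 in control ovaries, with 0.12 ± 0.10 and an interval from -0.11 to 0.36. Control replicate 3 was again at the level of the NT3 arrays. The other alpha ring genes had 0.043 for Psma5, 0.042 for Psma4, 0.034 for Psma3, -0.019 for Psma7 and -0.022 for Psma6. Control replicate 1 was the lowest of the 6 arrays in all of these 7 genes other than Psma2 and Psma3, in which control replicate 2 was lowest.

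The beta rings carry the catalytic sites, and 1 of their 6 genes was higher and 5 lower, with a median of -0.030. Without control replicate 2, 3 were higher and 3 lower, with a median of 0.042. Psmb5, the subunit with chymotrypsin-like activity, had signals of 2429, 2290 and 2465 in NT3, against 2278, 2659 and 2586 in control ovaries. The 3 NT3 values lay between the lowest and the highest control value. Its log2 fold change was -0.064 ± 0.097, with a 95% interval equal to 0.821-fold to 1.11-fold. Without control replicate 2 the log2 fold change of Psmb5 was -0.020. Psmb7, the subunit with trypsin-like activity, had 2075, 2266 and 2004 in NT3 and 2114, 2448 and 2153 in control ovaries. The difference of -0.081 ± 0.10 was -0.015 without control replicate 2, the highest array.

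Psmb2 encodes a non-catalytic beta subunit and was the only gene among the 38 in which every NT3 array stood above every control array, a pattern shown by 2.62% of all probe sets tested. Its signals were 2879, 2950 and 2863 in NT3, against 2604, 2797 and 2838 in control ovaries. The margin between the lowest NT3 and the highest control array was small. The log2 fold change was 0.078 ± 0.087, with an unadjusted limma p of 0.393. Psmb4, also non-catalytic, showed how much single arrays can carry, at 4812, 6131 and 5337 in NT3 and 4241, 6837 and 5646 in control ovaries. Control replicates 1 and 2 were the lowest and the highest of the 6 arrays, and the log2 fold change of -0.019 ± 0.17 was 0.14 without control replicate 2. Psmb3 had the same order of control arrays and -0.041, and Psmb1 had -0.014.

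**Figure D3:**
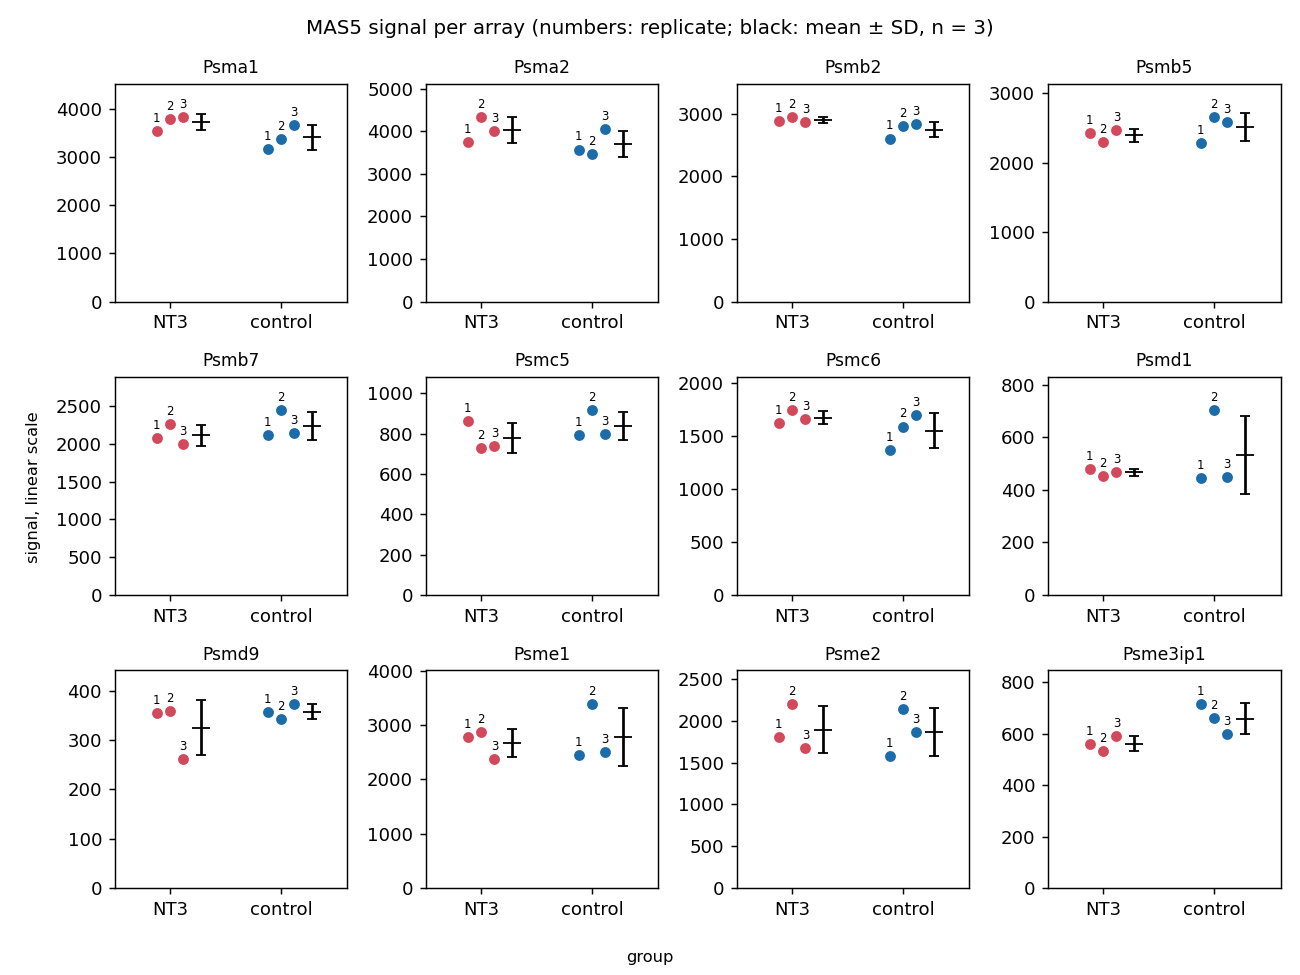
MAS5 signal on a linear scale from 0 for 12 genes, by group, with dots for arrays, numbers for replicates and black marks for the mean ± SD (n = 3). Psmb2 and Psme3ip1 are the genes without overlap between groups, and control replicate 2 stands above the other arrays in Psmd1 and Psme1.

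The 6 ATPases form the ring that unfolds substrates. All 6 were measured, and 1 was higher and 5 were lower in NT3, with a median log2 fold change of -0.027. Psmc6 had 1619, 1742 and 1655 in NT3, against 1368, 1588 and 1692 in control ovaries, and a log2 fold change of 0.11 ± 0.11. Control replicate 1 was the lowest array and control replicate 3 lay among the NT3 values. Its other probe sets gave 0.12 and 0.032. Psmc5 had 862, 731 and 738 in NT3, against 796, 917 and 798 in control ovaries, with -0.11 ± 0.11 and a p of 0.370 by limma. In Psmc5 control replicate 2 was again highest and NT3 replicate 1 came next. Its log2 fold change was -0.040 without control replicate 2. The others lay closer to 0, at -0.067 for Psmc2, -0.030 for Psmc3, -0.024 for Psmc1 and -0.0014 for Psmc4. Control replicate 2 was the highest array in all of the ATPase genes other than Psmc6, and without it 5 of the 6 were higher in NT3.

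Among the 14 other cap genes, 5 were higher and 9 lower, with a median of -0.011. Without control replicate 2, 8 were higher and 6 lower, with a median of 0.016. Psmd1, which encodes a large scaffold subunit, read 480, 452 and 466 in NT3, against 444, 703 and 450 in control ovaries. Apart from control replicate 2 the 5 arrays differed little. The log2 fold change of -0.16 ± 0.18 became 0.061 when that array was left out. Psmd9, an assembly chaperone of the ATPase ring, read 356, 359 and 261 in NT3, against 356, 343 and 374 in control ovaries, with -0.15 ± 0.15. NT3 replicate 3 was low, and the other 5 arrays read 343 to 374. Psmd9's second probe set, near the signal filter, had -0.10 ± 0.37.

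The scaffold gene Psmd3 had -0.093, or 0.087 when control replicate 2 was left out. It read 303 to 350 in NT3, against 450 in control replicate 2 and 287 and 335 on the other control arrays. Psmd13 had 0.011, or 0.18 without that array. It read 444 to 528 in NT3, against 619 in control replicate 2 and 434 and 444 on the other control arrays. The ubiquitin receptor gene Psmd4 had -0.035, and Psmd14, which encodes the enzyme that removes ubiquitin chains, -0.010. The other cap subunits had -0.053 for Psmd8, -0.012 for Psmd2, -0.011 for Psmd6, 0.0019 for Psmd11, 0.010 for Psmd12 and 0.051 for Psmd7. The assembly chaperone genes Psmd5 and Psmd10 had -0.014 and 0.049, and -0.10 and -0.027 without control replicate 2, in which both were lowest.

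Of the activators, Psme1 and Psme2 encode the subunits of the interferon-inducible ring and Psme4 a large single-chain activator of the nucleus. Psme1 read 2779, 2869 and 2376 in NT3, against 2458, 3395 and 2500 in control ovaries, with a log2 fold change of -0.046 ± 0.14. Psme2 read 1804, 2204 and 1669 in NT3, against 1573, 2143 and 1866 in control ovaries, with 0.026 ± 0.14. Both had their highest control value in replicate 2 and a low value in NT3 replicate 3. Without control replicate 2 the differences were 0.11 for Psme1 and 0.13 for Psme2. Psme4 read 884, 944 and 875 in NT3, against 875, 957 and 898 in control ovaries, with -0.013 ± 0.096. It had 0.024 without control replicate 2.

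All 7 interferon-response genes measured were highest on control replicate 2, against 31.4% of all probe sets tested. A low value on NT3 replicate 3 was not shared by every one of them. The median of the 7 of 8 such genes that were measured was 0.079, 0.165 and -0.566 on NT3 replicates 1 to 3, against -0.160, 0.610 and -0.099 on control replicates 1 to 3, and their summed signal spanned 2388 to 4072 in NT3 and 3083 to 5924 in control ovaries. Psmb8, Psmb9 and Psmb10 had a median of -0.0036, 0.131 and -0.240 on the NT3 arrays, against -0.273, 0.353 and 0.041 on the control arrays. Their log2 fold changes were -0.18 ± 0.15, -0.091 ± 0.17 and 0.054 ± 0.16. The part of interferon state in the values of Psme1 and Psme2 was not tested.

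Psme3ip1 had the lowest p of the 38 genes, 0.0699 by limma before adjustment and 1.00 after it. It read 562, 532 and 590 in NT3, against 717, 662 and 598 in control ovaries. The NT3 arrays all lay below the control arrays, as in 3.21% of all probe sets tested, although the highest NT3 and the lowest control array nearly met. The log2 fold change was -0.23 ± 0.11 and -0.22 without control replicate 2. Psmc3ip read 378, 315 and 473 in NT3 and 371, 337 and 459 in control ovaries, so that arrays of the same replicate number were alike and the difference was -0.0084 ± 0.18.

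The control arrays differed among themselves. Control replicate 2 was the highest of the 6 arrays in 20 of the 38 genes, against 31.4% of all probe sets tested, and the lowest in 4, against 27.5%. Control replicate 1 was the lowest in 18, and the share of all probe sets lowest on it was not computed. By role, control replicate 2 was highest in 2 of 7 alpha ring genes, 4 of 6 beta ring genes, 5 of 6 ATPase genes, 7 of 14 other cap genes and 2 of 3 activator genes. Its high beta-actin ratio stands beside these values, and its part in them was not tested. Without that array, 14 genes that had been lower in NT3 were higher and 2 that had been higher were lower.

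Genes with several probe sets gave another view of that array. Of the 38 genes, 6 had more than 1 probe set above the filter, and the 9 probe sets not used above include 4 in which control replicate 2 was the lowest array and 0 in which it was the highest. For Psmd14, the probe set used read 1640, 1468 and 1660 in NT3, against 1573, 1608 and 1613 in control ovaries. Its dimmest probe set read 306, 248 and 219 in NT3, against 208, 154 and 225 in control ovaries, with a log2 fold change of 0.40 ± 0.19 and an unadjusted limma p of 0.0625. The third gave 0.14, with 734 to 758 in NT3, against 562 in control replicate 2 and 742 and 745 in the other control ovaries. A probe set of Psme4 likewise read 690 to 750 in NT3, against 501 in control replicate 2 and 742 and 723 in control replicates 1 and 3. The direction was the same in all passing probe sets for 4 of the 6 genes, and Psmd14 and Psme4 were the exceptions. Where these probe sets lie along the transcripts was not analysed here.

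Other large complexes shared the pattern of the control arrays. The 45 tested cytosolic ribosomal protein genes, of 47 named, had a median of -0.048, 0.081 and -0.078 on NT3 replicates 1 to 3, against -0.161, 0.245 and -0.023 on control replicates 1 to 3. The 73 genes of oxidative phosphorylation had -0.078, 0.076 and 0.0046 in NT3 and -0.182, 0.137 and 0.047 in control ovaries. In all 3 groups of genes control replicate 2 was highest and control replicate 1 lowest. The median log2 fold changes were -0.014 for the proteasome genes, -0.028 for the ribosomal protein genes and 0.0051 for oxidative phosphorylation. Without control replicate 2 they were 0.033, 0.073 and 0.067. Ribosomal protein genes went from 12 higher and 33 lower to 40 and 5 without that array. Those of oxidative phosphorylation went from 37 and 36 to 62 and 11, where 49% of all probe sets were higher. Differences between these gene groups were not tested.

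**Figure D4:**
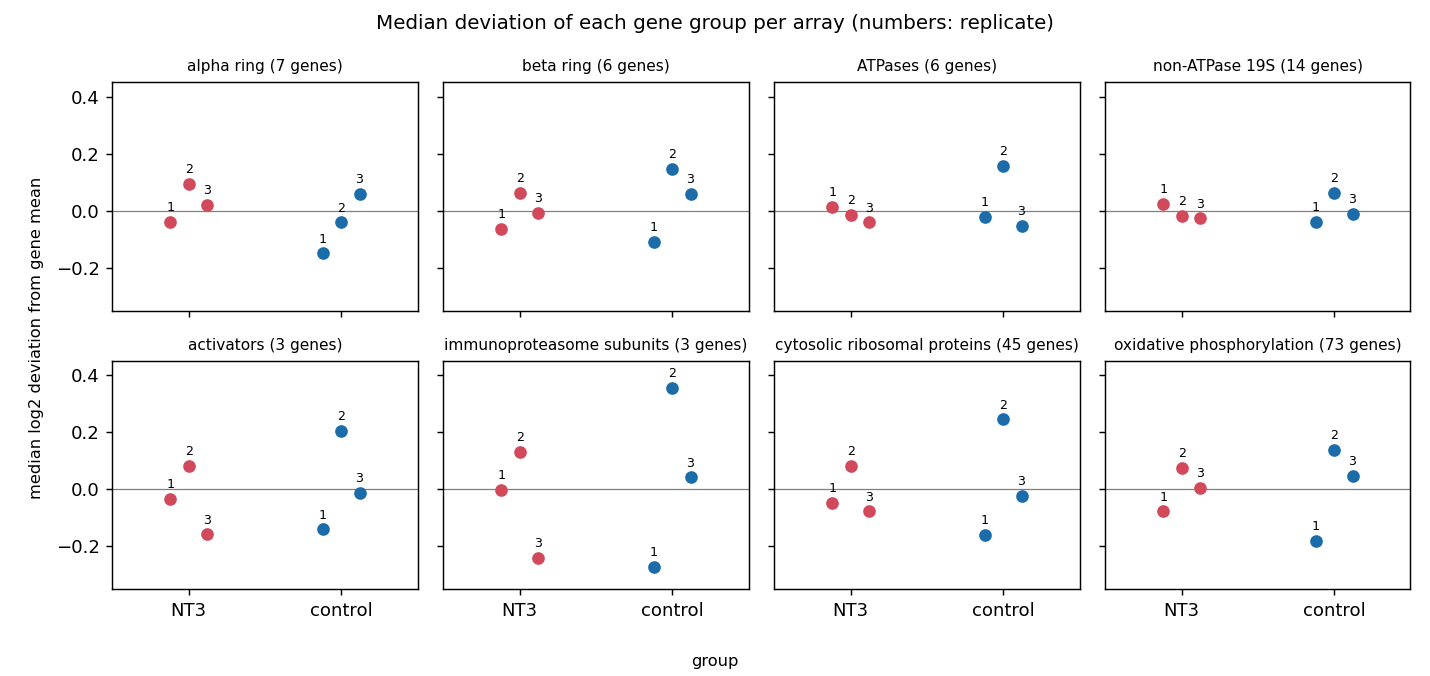
Median log2 deviation from the gene mean on each array, for NT3 (left in each panel) and control (right), with replicate numbers, for 5 proteasome role groups, the 3 immunoproteasome genes, ribosomal protein genes and oxidative phosphorylation. Control replicate 2 reaches 0.353 in the immunoproteasome genes and 0.157 in the ATPases, and the NT3 values overlap the control values in every panel.

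Genes of proteins that assemble the proteasome or deliver its substrates were taken from lists of known partners. Of 22 tested genes for assembly and associated proteins, 9 were higher and 13 lower, with a median of -0.020. Psmg2, which encodes a chaperone of alpha ring assembly, was the only one at an unadjusted p under 0.05, against 0.741% of all probe sets lower at that level. It read 665, 799 and 747 in NT3, against 866, 856 and 887 in control ovaries. All NT3 arrays lay below all control arrays, as in 2 of the 22 genes and 3.21% of all probe sets tested. The log2 fold change was -0.24 ± 0.11, with limma p-values of 0.0462 before and 1.00 after adjustment, and it was -0.25 without control replicate 2. Its dimer partner Psmg1 had -0.059 ± 0.094, and Pomp, which guides beta ring assembly, -0.0062 ± 0.12.

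The inhibitor gene Psmf1 had -0.054 ± 0.14, the ubiquitin receptor gene Adrm1 0.053 ± 0.14, and Usp14, a deubiquitinase of the cap, -0.027 ± 0.089. Among 22 tested genes of ubiquitin conjugation and unfolding, 12 were higher and 10 lower with a median of 0.0031, and 0 were at an unadjusted p under 0.05 by limma. Of 10 tested genes of transcription control 4 were higher and 6 lower. Nfe2l1 itself had 156, 161 and 134 in NT3, against 162, 163 and 195 in control ovaries, with -0.20 ± 0.16. Only NT3 replicate 3 and control replicate 3 lay away from the other 4 arrays.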

How the data were processed

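Affymetrix 1-colour arrays measured RNA of cultured whole rat ovaries in 6 samples. The deposited values are linear intensities, 1 for each probe set on each array, made by the authors with MAS5 per the submitters' processing notes; the sources used here do not give its version or scale target. The 57 control probe sets were removed and log2 values taken, with a floor of 0.1 for 5 values of 0. Probe sets below the 40th percentile of mean log2 signal, 41.3, were left out, which kept 18625. NT3 was compared with control by limma 3.58.1 in R 4.3.3 (lmFit, eBayes with intensity trend, 2-sided, Benjamini-Hochberg adjustment at 0.05), as tested on simulated data. The precision is limited by 3 arrays per group, and 0 pairs of arrays held identical values.

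The array annotation gave 20826 probe sets 1 symbol, 436 several and 9780 none; all 38 genes kept their symbol in the RefSeq table of GRCr8. Members, lists and tests were chosen with earlier results of these data known. Values on every array are given for Psmb5, Psmb7, Psme1, Psme2, Psme4, the 2 genes of each role with the lowest p and the 5 with the lowest p in all; values of Psmb4, Psmd3, Psmd13 and Psmd14 on single arrays were added after they were seen. Of other genes, those at an unadjusted p under 0.05 and a fixed few were named.

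Groups and replicate numbers came from the titles. Deviations from the group means correlated at 0.230, 0.247 and 0.222 for equal numbers, against -0.246 to 0.029 for unequal ones. No label states a pairing by number. The main fit has no block and treats the samples as unpaired, so pairing by number enters only through the block alternatives. The alternatives were the block, other scalings, filters, offset and variance settings, array weights, single arrays left out and averaging the probe sets of each gene. Leaving out Psmc3ip and Psme3ip1 was added later.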

Additional observations from a re-analysis of the deposited data

How the results depend on the processing

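The 38 proteasome genes had no adjusted call by limma under any of the alternatives run. Over all probe sets, 0 were called at an adjusted p under 0.05, except that 4 were with the replicate block and without control replicate 2; these were 1 probe set of Hnrnpa2b1 and 3 without a name, seen after the values. With the replicate block alone the proteasome median stayed at -0.014, with 13 genes higher and 0 at an unadjusted p under 0.05. The median lay between -0.063 and 0.033 when single arrays were left out, and these changes were smaller than the spread of array medians. The number of genes higher in NT3, 13 with all arrays, was 7 to 25 with single arrays left out, the lowest without control replicate 1 and the highest without control replicate 2. It was 25 with array weights and 27 with the replicate block and without control replicate 2. In these settings the median log2 fold change over all probe sets tested was 0.00061 and -0.00084. The number was 3 when only log2 fold changes over 0.1 were counted. The cause was not tested, other than that the last setting counts fewer genes by construction. At an unadjusted p under 0.05 by limma there was 1 gene with array weights, against 3.14% of all probe sets tested. With single arrays left out there were 0 to 1, and the 1 came without control replicate 3, against 2.26% of all probe sets. In each case the gene was Psme3ip1, which was also the 1 gene under 0.1 with all arrays. Without Psmc3ip and Psme3ip1 the counts were 13 higher and 0 at an unadjusted p under 0.05. With the probe sets of each gene averaged, 15 genes were higher, and the log2 fold change was -0.76 for Psmc4, against -0.0014 with 1 probe set, -0.36 for Psme1, -0.15 for Psmd11, 0.10 for Psmb5, 0.18 for Psmd14 and 0.050 for Psme4. The averages of the first 4 take in probe sets below the filter, where signals are too dim to order.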
